A study of Mus musculus with 12 samples.

Results

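The NRF2 pathway and the defence against ferroptosis were followed through 10 genes in a mouse tumour cell line carrying either a control guide or a guide against Rnf19a, with and without IR treatment. The 10 genes, Nfe2l2, Keap1, Slc7a11, Gclc, Gclm, Gpx4, Txnrd1, Srxn1, Nqo1 and Hmox1, were taken by symbol from the 55401 genes of the count table, and each symbol matched 1 gene. All 10 passed the filter on low counts, which kept 18183 genes. Levels are given as counts-per-million (CPM) after TMM scaling of the libraries, and per transcript length in FPKM. Gene positions are those of the deposited tables, whose starts and ends match mm10 for most genes. The cells are labelled B16F10, a mouse melanoma line. The design text names the control guide sgNC, and the labels call the cells with the other guide Rnf19a deficient. RNF19A is an E3 ubiquitin ligase of the RING-between-RING class. The 4 groups had 3 libraries each: control (sgNC, no IR), sgRnf19a (no IR), control_IR and sgRnf19a_IR, the last pair collected after 24 h of IR treatment. IR is not spelled out in the labels, and no dose is given. The guide's delivery, the number of clones and the origin of the libraries (separate cultures or not) are not given either, so p-values measure only the spread between these libraries. The count columns of the IR groups carry a D and the numbers 1, 4 and 5 (control) and 1, 3 and 4 (sgRnf19a). Their place in the IR groups follows by elimination, and their libraries are named below by those column numbers.

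NRF2, the product of Nfe2l2, is a transcription factor that KEAP1 holds for ubiquitination by a cullin-3 ligase. Oxidants and electrophiles that modify KEAP1 release NRF2, which pairs with small MAF proteins at antioxidant response elements of genes for glutathione synthesis, thioredoxin recycling, quinone reduction and heme and iron handling. Ferroptosis is a form of cell death by iron-dependent peroxidation of membrane lipids. GPX4 reduces those lipid peroxides with glutathione, whose synthesis depends on cystine brought in by SLC7A11.

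Promoter windows of the members were searched for the core letters of the antioxidant response element, and they are printed because the members did not move together. RefSeq (GRCm38.p6) gave 13 windows for 8 of the 10 members, each 300 bases long, from 250 bases before to 50 bases after a start site; Gclc and Hmox1 had no entry. The core was searched on both strands as TGACNNNGC or TGAGNNNGC. It occurred in 27.8% of all 32851 promoter windows. Counted by gene, it occurred in windows of 5 members: Nfe2l2, Gclm, Txnrd1, Srxn1 and Slc7a11. Some members have several windows, so the share per window is not a background for the count of members. The Srxn1 window held 3 matches. The matches of Nfe2l2, Gclm, Txnrd1 and the Srxn1 match nearest upstream of the start site are in capitals below, read 5′ to 3′ on the gene's strand, so that a capital run starting with GC is a match on the other strand.
Nfe2l2 (chr2:75704859-75704913, minus strand): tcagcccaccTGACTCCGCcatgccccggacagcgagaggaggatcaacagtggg
Gclm (chr3:122245387-122245467, plus strand): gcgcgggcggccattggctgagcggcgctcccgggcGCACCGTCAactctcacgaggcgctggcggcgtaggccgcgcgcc
Txnrd1 (chr10:82859078-82859158, plus strand): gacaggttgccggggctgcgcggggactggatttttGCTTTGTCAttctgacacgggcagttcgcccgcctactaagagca
Srxn1 (chr2:152105443-152105523, plus strand): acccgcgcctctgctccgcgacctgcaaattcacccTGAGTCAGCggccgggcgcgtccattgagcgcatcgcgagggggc
The Srxn1 run contains the AP-1 letters TGANTCA, so the 2 matches overlap; TGANTCA occurred in 7.81% of all windows. The Slc7a11 window also held the core of the amino acid response element, searched on both strands as TGATGNAA, at 2 places, once on each strand. These are in capitals below, and this core occurred in 3.97% of all windows.
Slc7a11 (chr3:50443617-50443715, minus strand): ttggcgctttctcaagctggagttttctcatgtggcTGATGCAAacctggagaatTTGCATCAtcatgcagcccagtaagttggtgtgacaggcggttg
The windows of Keap1, Gpx4 and Nqo1 held none of the 3 motifs. Sequence outside the windows was not searched, so a window without a match does not show that the gene lacks an element. A match in such a window is a run of letters and was not tested for binding.

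The libraries of the IR groups differed from the untreated ones beyond the members. Total counts were 62681644 to 71265107 in untreated libraries and 34262483 to 45576326 in IR libraries, and ribosomal RNA took 0.223% to 0.696% of counts without IR and 11.3% to 22.1% with it. Long transcripts had lower counts with IR. The measure was the median log2(CPM + 1) of protein-coding transcripts over 6000 bases minus that of those under 1000 bases. Only genes with a mean of at least 2 CPM entered it. Without IR it was 0.91 to 1.65 in control and 1.69 to 1.86 in sgRnf19a libraries, so it also separated the guides. With IR it was -1.78 to -1.47 in control_IR libraries. In sgRnf19a_IR it was -0.61 in library 1 and -1.42 in library 3, and library 4 stood apart at 0.39. Members differ in length, from 995 bases for Gpx4 to 9223 bases for Slc7a11. Changes are therefore given as counted and, for part of them, also after a correction of every library for transcript length and GC content. Some are also given without library 4 where that library decides a value. A change given without mention of the correction is as counted only. Rnf19a itself stood at 21.5 to 33.5 CPM in control, 22.6 to 27.5 in sgRnf19a, 4.37 to 8.06 in control_IR and 11.6 to 37.7 in sgRnf19a_IR; an RNA level does not show whether a guide has cut its gene. Of 8 melanocyte markers, 4 (Mlana, Slc45a2, Tyr and Tyrp1) had 0 counts throughout, and Dct, Sox10 and Pmel had 6, 78 and 109 counts in all. The remaining marker, Mitf, was at 11.4 ± 2.13 CPM in control and 15.9 ± 0.226 CPM in sgRnf19a (SD, n = 3). The pigment genes that define melanocytes were thus at or near 0, while Mitf was counted. The summed level of 5 epithelial markers was 658 to 830 CPM in control, 559 to 572 in sgRnf19a, 1043 to 1216 in control_IR and 394 to 684 in sgRnf19a_IR, carried by Krt8, Krt18 and Krt19, while Epcam and Cdh1 averaged 0.829 and 0.0605 CPM in control. The sum of 6 immune markers, with Cd3e at 0 throughout, was lower with IR, at 50.7 to 56.8 CPM in control against 10.6 to 29.2 in control_IR and at 59.0 to 70.1 in sgRnf19a against 24.0 to 47.8 in sgRnf19a_IR. Fibroblast markers summed to 35.2 to 143 CPM with overlapping groups, and endothelial markers to at most 5.66 CPM. The part of depth, ribosomal RNA and these markers in the members' changes was not tested.

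In untreated control cells the members spanned a wide range of levels per transcript length. On the FPKM scale of the authors' deposited values (mean ± SD, n = 3), Gpx4 was highest at 85.6 ± 30.6, followed by Nfe2l2 at 74.3 ± 7.08; their libraries overlapped. Nqo1 stood at 51.8 ± 5.51, with no overlap with its neighbours in the order. Hmox1 at 41.2 ± 0.979, Txnrd1 at 37.3 ± 3.59 and Srxn1 at 32.5 ± 2.25 formed a middle set in which neighbours overlapped. Gclc at 16.2 ± 1.89, Gclm at 12.4 ± 2.92 and Keap1 at 10.3 ± 1.87 also overlapped from one to the next. Slc7a11 was lowest at 2.72 ± 0.287 FPKM, below all other members in every control library. In control_IR the order was led by Gpx4 at 204 ± 16.8 and Nqo1 at 107 ± 6.50 FPKM, and no library of either overlapped with the next member. Nfe2l2, ranked 2 in control, was ranked 5 in that group, at 20.9 ± 1.91 FPKM, and Slc7a11 stayed last at 0.607 ± 0.156 FPKM. In sgRnf19a cells Nfe2l2 (64.7 ± 3.53 FPKM) and Gpx4 (55.5 ± 6.42 FPKM) led and overlapped, while Nqo1, ranked 3 in control, was ranked 5 at 24.2 ± 1.77 FPKM. In sgRnf19a_IR, Gpx4 led at 138 ± 49.9 FPKM and every other pair of neighbours overlapped.

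IR moved most of the members in control cells, in both directions, and the guide lowered Nqo1 with and without IR. A gene is called changed here where edgeR's quasi-likelihood test, fitted on all 18183 genes kept, gave a Benjamini-Hochberg adjusted p under 0.05. The comparison of IR in control cells and that of the guide in untreated cells share the control libraries, and each other group also enters more than 1 comparison. With IR in control cells 8 of the 10 members were called, 4 higher and 4 lower, against 47.9% of all genes called; after the length and GC correction 8 were called, 5 higher and 3 lower, against 41.6% (24.3% higher and 17.3% lower). The libraries did not overlap for 9 members, against 62.1% of all genes. With IR in sgRnf19a cells 5 members were called, 3 higher and 2 lower, against 35.6% of all genes; after the correction 8 were called, 4 in each direction, against 35.7% (19.1% higher and 16.6% lower), and without sgRnf19a_IR library 4 there were 7, 3 higher and 4 lower. The libraries did not overlap for 6 members, against 49.8% of all genes. With the guide in untreated cells 2 members were called, both lower, against 6.22% of all genes, and after the correction 4, 1 higher and 3 lower, against 8.05% (4.07% higher and 3.98% lower). Without sgRnf19a_IR library 4 there were also 4. The shares of all genes called without library 4 are not given, so those counts are not read as results about the members. The libraries did not overlap for 5 members, against 38.2% of all genes. With the guide in IR-treated cells 3 members were called, 1 higher and 2 lower, against 33.8% of all genes, and after the correction 3, all lower, against 26.3% (11.4% higher and 14.9% lower). The libraries did not overlap for 5 members here too, against 42.5% of all genes. The median log2 change of the members was -0.16 with IR in control cells, -0.13 with IR in sgRnf19a cells, -0.32 with the guide in untreated cells and -0.14 with the guide in IR-treated cells. Over all genes these medians were -0.021, -0.016, 0.029 and 0.070. With the correction the members' medians were 0.33, -0.18, -0.29 and -0.18, so that the first changed sign, and those of all genes were 0.094, 0.031, 0.0044 and -0.059. The count of called members was near the background with the guide in IR-treated cells, and none of these counts was tested.

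**Figure D1:**
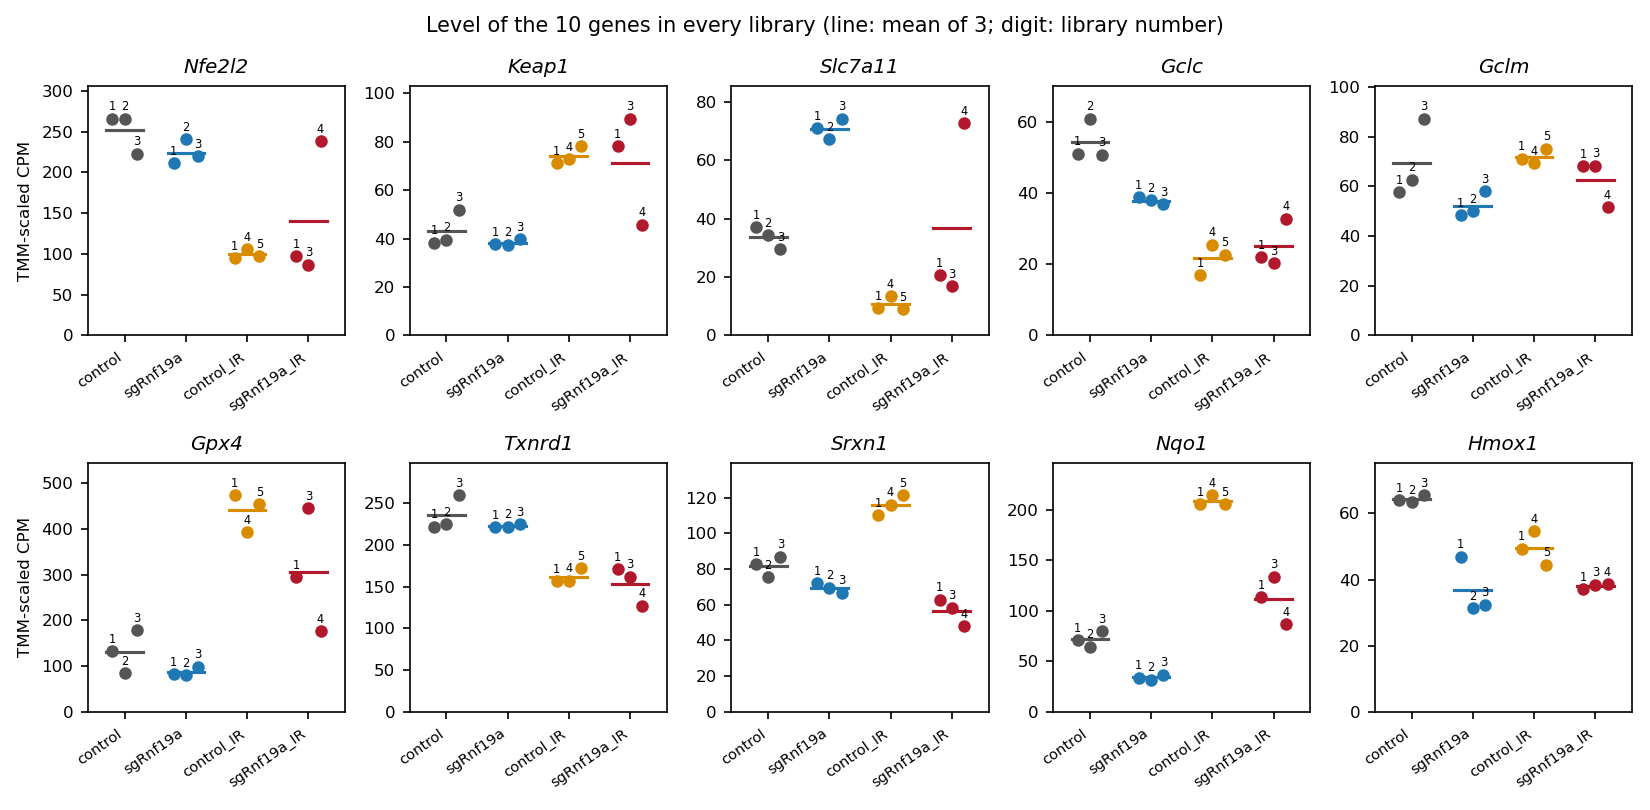
Level of the 10 genes in CPM after TMM scaling (y axis, from 0) in each of the 12 libraries, by group (x axis); points are libraries with their number, and lines are means of 3. Nqo1 was lower in every sgRnf19a library (32.0 to 36.8 CPM) than in every control library (64.5 to 79.6 CPM), and sgRnf19a_IR library 4 lay far from the other libraries of its group for Slc7a11 and Nfe2l2.

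The regulators moved in opposite directions with IR. Nfe2l2 stood at 266, 266 and 223 CPM in control libraries 1, 2 and 3 and at 211, 241 and 219.9 CPM in sgRnf19a libraries 1, 2 and 3. In control_IR libraries 1, 4 and 5 Nfe2l2 was at 94.9, 106 and 97.3 CPM, and in sgRnf19a_IR libraries 1, 3 and 4 at 96.9, 86.6 and 238 CPM. All 3 control_IR libraries lay below all control libraries, whereas in the sgRnf19a cells library 4 lay among the untreated ones. Nfe2l2 (ENSMUSG00000015839, chr2:75675513-75704641, minus strand), which encodes NRF2, fell 2.53-fold with IR in control cells, a log2 change of -1.34 ± 0.31 (SE; edgeR adjusted p = 0.00337), and -0.97 after the length and GC correction. In sgRnf19a cells the log2 change was -0.67 ± 0.30, which was not called (edgeR adjusted p = 0.106); it was -1.30 without library 4 (edgeR adjusted p = 6.07e-06) and -0.66 with the correction (edgeR adjusted p = 0.0296). As counted, no guide effect on Nfe2l2 was called: the 95% interval of the log2 difference was -0.86 to 0.53 without IR and -0.20 to 1.20 with it. After IR the sign of that guide difference rested on library 4: it was 0.50 with the library and -0.11 without it. It was called in opposite directions by 2 alternatives, at 0.75 without sgRnf19a_IR library 3 (edgeR adjusted p = 0.0466) and at -0.36 with the correction and library 4 left out (edgeR adjusted p = 0.0287), so no direction is given for it.

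Keap1 stood at 38.2, 39.6 and 51.9 CPM in control libraries 1, 2 and 3 and at 37.6, 37.5 and 39.8 CPM in sgRnf19a libraries 1, 2 and 3. Keap1 was at 71.1, 72.7 and 78.1 CPM in control_IR libraries 1, 4 and 5 and at 78.1, 89.6 and 45.7 CPM in sgRnf19a_IR libraries 1, 3 and 4. The IR libraries of both guides lay above the untreated ones except that sgRnf19a_IR library 4 was close to them, and the 2 untreated groups overlapped. Keap1 (ENSMUSG00000003308, chr9:21229730-21239361, minus strand), the NRF2 adaptor to the cullin-3 ligase, rose 1.71-fold in control cells (log2 0.77 ± 0.21, edgeR adjusted p = 0.0101) and 1.86-fold in sgRnf19a cells (log2 0.89 ± 0.21, edgeR adjusted p = 0.00712). With the correction the log2 changes were 0.53 and 0.79, both called. On the deposited FPKM scale, where the median of all genes itself lay at -0.34 and -0.40, limma gave 0.27 and 0.35 on log2(FPKM + 1), neither called. No fit called a guide effect on Keap1, and the 95% intervals of the log2 difference were -0.66 to 0.31 without IR and -0.55 to 0.43 with it. Exons of Keap1 overlap those of the antisense gene Gm16754, which held a mean of 135 counts per library.

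The values of Slc7a11, the longest member, moved with the length correction and with 1 library. Slc7a11 stood at 37.2, 34.5 and 29.6 CPM in control libraries 1, 2 and 3 and at 71.0, 67.2 and 74.3 CPM in sgRnf19a libraries 1, 2 and 3. After IR, Slc7a11 read 9.34, 13.5 and 9.02 CPM in control_IR libraries 1, 4 and 5 and 20.6, 17.0 and 72.7 CPM in sgRnf19a_IR libraries 1, 3 and 4. The sgRnf19a libraries lay above all control libraries without IR, and the sgRnf19a_IR libraries lay above all control_IR libraries, library 4 by far the most. Slc7a11 (ENSMUSG00000027737, chr3:49892526-50443614, minus strand) encodes the light chain of the cystine/glutamate antiporter. Without IR the guide was accompanied by a 2.10-fold higher mean, 70.8 ± 3.58 against 33.7 ± 3.86 CPM (SD, n = 3), which edgeR did not call (log2 1.07 ± 0.43, adjusted p = 0.216). The same difference was called without sgRnf19a_IR library 4, which belongs to another group of the same fit (log2 1.07, edgeR adjusted p = 0.000674), and with the length and GC correction (log2 0.86, edgeR adjusted p = 0.00958). With IR the guide difference was called as counted (log2 1.79 ± 0.45, edgeR adjusted p = 0.0101), was 0.83 without library 4 (adjusted p = 0.00476) and was not called with the correction (0.39, adjusted p = 0.139). IR in control cells gave a called log2 change of -1.67 ± 0.44 as counted (edgeR adjusted p = 0.00820) but 0.33 with the correction (adjusted p = 0.174), so no direction is given for it. In sgRnf19a cells the log2 change with IR was -0.95, not called, and -0.14 with the correction. Without library 4 it was -1.92 and called (edgeR adjusted p = 7.03e-06).

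The subunits of glutamate-cysteine ligase, which makes the first bond of glutathione, differed in their changes. Gclc stood at 51.2, 61.1 and 50.9 CPM in control libraries 1, 2 and 3 and at 38.9, 38.1 and 36.9 CPM in sgRnf19a libraries 1, 2 and 3. With IR the levels were 16.9, 25.6 and 22.8 CPM in control_IR libraries 1, 4 and 5 and 22.1, 20.4 and 32.9 CPM in sgRnf19a_IR libraries 1, 3 and 4. All IR libraries lay below all untreated libraries, and the sgRnf19a libraries lay below all control libraries. Gclc (ENSMUSG00000032350, chr9:77754535-77794485, plus strand), the catalytic subunit, fell 2.50-fold with IR in control cells (log2 -1.32 ± 0.20, edgeR adjusted p = 0.000262; -0.96 with the correction). In sgRnf19a cells it fell 1.51-fold (log2 -0.60 ± 0.20, edgeR adjusted p = 0.0356), but this call was lost without any 1 of the 3 sgRnf19a libraries or without sgRnf19a_IR library 1 or 3, at adjusted p = 0.0705 to 0.125. The guide difference without IR was log2 -0.52 ± 0.20 and was not called (edgeR adjusted p = 0.185); it was called with the correction (-0.60, adjusted p = 0.0157) and without sgRnf19a_IR library 4 (adjusted p = 0.0350). With IR the guide groups overlapped, at a 95% interval of -0.25 to 0.67.

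Gclm stood at 57.6, 62.7 and 87.3 CPM in control libraries 1, 2 and 3 and at 48.5, 49.9 and 58.0 CPM in sgRnf19a libraries 1, 2 and 3. In control_IR libraries 1, 4 and 5 Gclm was at 71.1, 69.3 and 75.2 CPM, and in sgRnf19a_IR libraries 1, 3 and 4 at 68.0, 68.3 and 51.6 CPM. The untreated and IR libraries overlapped in both guides. Gclm (ENSMUSG00000028124, chr3:122245557-122270732, plus strand), the modifier subunit, showed no called change in any comparison as counted: log2 0.055 with IR in control cells, 0.26 with IR in sgRnf19a cells, -0.41 with the guide in untreated cells and -0.20 with the guide in IR-treated cells. The correction turned the IR differences into called ones, at 1.56 ± 0.32 (edgeR adjusted p = 0.00173) and 1.14 ± 0.32 (adjusted p = 0.0140), and the guide difference with IR as well, at -1.05 (adjusted p = 0.0282). Gclm shares exon positions with the antisense gene Gm17494, which held a mean of 3853 counts per library. Whether the counting used strand is not given in the sources used here, so reads of the pair cannot be told apart and the Gclm values are uncertain.

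Gpx4, the glutathione peroxidase that reduces lipid hydroperoxides, was the member with the largest called rise as counted in either guide. Gpx4 stood at 132, 84.4 and 178 CPM in control libraries 1, 2 and 3 and at 83.1, 79.8 and 99.1 CPM in sgRnf19a libraries 1, 2 and 3. Gpx4 was at 474, 393 and 454 CPM in control_IR libraries 1, 4 and 5 and at 295, 445 and 176 CPM in sgRnf19a_IR libraries 1, 3 and 4. In control cells the IR libraries lay well above the untreated ones, whereas sgRnf19a_IR library 4 lay nearer to the untreated libraries than to libraries 1 and 3. Gpx4 (ENSMUSG00000075706, chr10:80047166-80056439, plus strand) rose 3.34-fold with IR in control cells (log2 1.74 ± 0.32, edgeR adjusted p = 0.000802) and 3.50-fold in sgRnf19a cells (log2 1.81 ± 0.32, edgeR adjusted p = 0.00123). Gpx4 is the shortest member, and the length and GC correction brought the log2 changes to 0.84 ± 0.22 and 1.17 ± 0.22, both still called (edgeR adjusted p = 0.00747 and 0.00135). The guide groups overlapped without and with IR, with 95% intervals of the log2 difference of -1.31 to 0.13 and -1.25 to 0.19. The latter difference was called in 1 of the 23 alternatives, without sgRnf19a_IR library 3, at -0.90 (edgeR adjusted p = 0.0282). With the length and GC correction it was 0.030 and not called (edgeR adjusted p = 0.941). The pseudogene Gpx4-ps2, a near copy, held a mean of 1981 counts per library, and how reads were divided between the copies is not given in the sources used here.

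Among the thioredoxin genes, Txnrd1 and Srxn1 moved apart with IR in control cells, whereas both had negative log2 changes with IR in sgRnf19a cells. Txnrd1 stood at 222, 225 and 259.6 CPM in control libraries 1, 2 and 3 and at 221, 222 and 225 CPM in sgRnf19a libraries 1, 2 and 3. After IR, Txnrd1 read 156, 157 and 172 CPM in control_IR libraries 1, 4 and 5 and 171, 162 and 127 CPM in sgRnf19a_IR libraries 1, 3 and 4. All IR libraries lay below all untreated libraries, and the guides overlapped. Txnrd1 (ENSMUSG00000020250, chr10:82833951-82897712, plus strand), the cytosolic thioredoxin reductase, fell 1.45-fold with IR in control cells (log2 -0.54 ± 0.13, edgeR adjusted p = 0.00492) and 1.45-fold in sgRnf19a cells (log2 -0.54 ± 0.13, edgeR adjusted p = 0.00802). With the correction the log2 change in control cells was -0.36, no longer called (adjusted p = 0.0683), and in sgRnf19a cells -0.51, called. The guide had no called effect on Txnrd1, and its 95% intervals of the log2 difference, -0.38 to 0.22 without IR and -0.38 to 0.22 with it, were among the narrowest of the members.

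Srxn1 stood at 82.8, 75.3 and 86.9 CPM in control libraries 1, 2 and 3 and at 72.2, 69.5 and 66.8 CPM in sgRnf19a libraries 1, 2 and 3. With IR the levels were 110.3, 116 and 122 CPM in control_IR libraries 1, 4 and 5 and 63.0, 58.4 and 47.8 CPM in sgRnf19a_IR libraries 1, 3 and 4. In control cells every IR library lay above every untreated library, in sgRnf19a cells every IR library lay below every untreated one, and with IR the guide groups were far apart. Srxn1 (ENSMUSG00000032802, chr2:152105516-152109322, plus strand) encodes sulfiredoxin, which restores over-oxidised peroxiredoxins. It fell 2.06-fold with the guide in IR-treated cells, from 116 ± 5.62 to 56.4 ± 7.76 CPM (SD, n = 3), a log2 change of -1.04 ± 0.13 (edgeR adjusted p = 0.000204) and -0.92 with the correction. Without IR the log2 difference was -0.23 ± 0.13 and was not called (adjusted p = 0.405), although the libraries did not overlap. IR raised Srxn1 in control cells by 0.51 ± 0.13 on the log2 scale (edgeR adjusted p = 0.00593), and its change in sgRnf19a cells was -0.30 ± 0.13 (adjusted p = 0.0861), not called; with the correction both were called, at 0.32 and -0.39. On log2(FPKM + 1) the change in control cells was 0.016 and was not called by limma, on a scale where the median of all genes lay at -0.34.

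Srxn1 also had the largest estimated difference between the IR responses of the 2 guides. The difference between the IR responses, tested as the interaction of guide and IR, was -0.81 ± 0.18 on the log2 scale, with an edgeR adjusted p = 0.0672, short of the threshold. It passed with the length and GC correction (-0.71, edgeR adjusted p = 0.0397), in DESeq2 (adjusted p = 0.00134), without sgRnf19a_IR library 3 (adjusted p = 0.0189) and without library 4 (adjusted p = 0.0264). Over the 22 alternatives the adjusted p ran from 0.00134 to 0.215, and 6 of them called it. No member was called for this difference by edgeR, against 0.682% of all genes, and 1 was with the correction, against 1.94%. At an unadjusted p under 0.05 there were 2, Srxn1 and Gclc, against 21.2% of all genes. DESeq2 called 1, Srxn1, and the share of all genes called in that fit is not given. For Gclc the log2 difference of the responses was 0.73 ± 0.28 (edgeR adjusted p = 0.175), the fall with IR being smaller in sgRnf19a cells, and 0.43 with the correction. The 95% intervals of the other 8 members all included 0, the widest for Slc7a11 at -0.68 to 2.13 and the narrowest for Txnrd1 at -0.43 to 0.43.

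Nqo1 was the 1 member called in all 4 comparisons. Nqo1 stood at 71.0, 64.5 and 79.6 CPM in control libraries 1, 2 and 3 and at 33.9, 32.0 and 36.8 CPM in sgRnf19a libraries 1, 2 and 3. In control_IR libraries 1, 4 and 5 Nqo1 was at 205, 214 and 205 CPM, and in sgRnf19a_IR libraries 1, 3 and 4 at 113, 134 and 86.9 CPM. In CPM the 4 groups did not overlap, and their order was control_IR, sgRnf19a_IR, control and sgRnf19a from high to low. In FPKM sgRnf19a_IR (45.9 to 64.4) overlapped with control (47.1 to 57.8). The same 2 groups overlapped in CPM after the length and GC correction (63.3 to 134 against 64.6 to 83.6). Nqo1 (ENSMUSG00000003849, chr8:107388225-107403206, minus strand), which reduces quinones with NAD(P)H, rose 2.90-fold with IR in control cells (log2 1.54 ± 0.16, edgeR adjusted p = 5.65e-05) and 3.25-fold in sgRnf19a cells (log2 1.70 ± 0.16, edgeR adjusted p = 3.76e-05). It fell with the guide 2.09-fold without IR (log2 -1.07 ± 0.16, edgeR adjusted p = 0.00127) and 1.87-fold with IR (log2 -0.90 ± 0.16, edgeR adjusted p = 0.00175). With the correction these 4 changes were 1.70, 1.65, -1.16 and -1.21, and each was called in every alternative fit run. The interaction was 0.16 with a 95% interval of -0.34 to 0.67.

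Hmox1 stood at 63.9, 63.3 and 65.5 CPM in control libraries 1, 2 and 3 and at 46.9, 31.3 and 32.4 CPM in sgRnf19a libraries 1, 2 and 3. Hmox1 was at 49.3, 54.6 and 44.5 CPM in control_IR libraries 1, 4 and 5 and at 37.2, 38.5 and 38.7 CPM in sgRnf19a_IR libraries 1, 3 and 4. The sgRnf19a libraries lay below the control libraries, library 1 less far than 2 and 3, and the sgRnf19a_IR libraries lay below the control_IR libraries. Hmox1 (ENSMUSG00000005413, chr8:75093621-75100589, plus strand), which opens heme and frees its iron, fell 1.74-fold with the guide in untreated cells (log2 -0.80 ± 0.16, edgeR adjusted p = 0.00905) and by 0.76 on the log2 scale with the correction. The call was lost without sgRnf19a library 2 (adjusted p = 0.0599) or library 3 (adjusted p = 0.0585). With IR the guide difference was log2 -0.38 ± 0.16, not called (edgeR adjusted p = 0.0859), and -0.19 with the correction, not called (adjusted p = 0.359). It was called in 2 of the 23 alternatives, among them the fit without sgRnf19a library 1 (edgeR adjusted p = 0.0397). IR in control cells gave log2 -0.38 ± 0.16 (edgeR adjusted p = 0.0662), not called although the groups did not overlap, and -0.80 with the correction, called (adjusted p = 0.000618). It was also called without sgRnf19a library 1, sgRnf19a_IR library 1 or sgRnf19a_IR library 4 (adjusted p = 0.0270, 0.0397 and 0.0411). In all, 11 of the 23 alternatives called this change, each with the same sign. In sgRnf19a cells the untreated and IR libraries overlapped, and the 95% interval of the log2 change was -0.31 to 0.41.

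**Figure D2:**
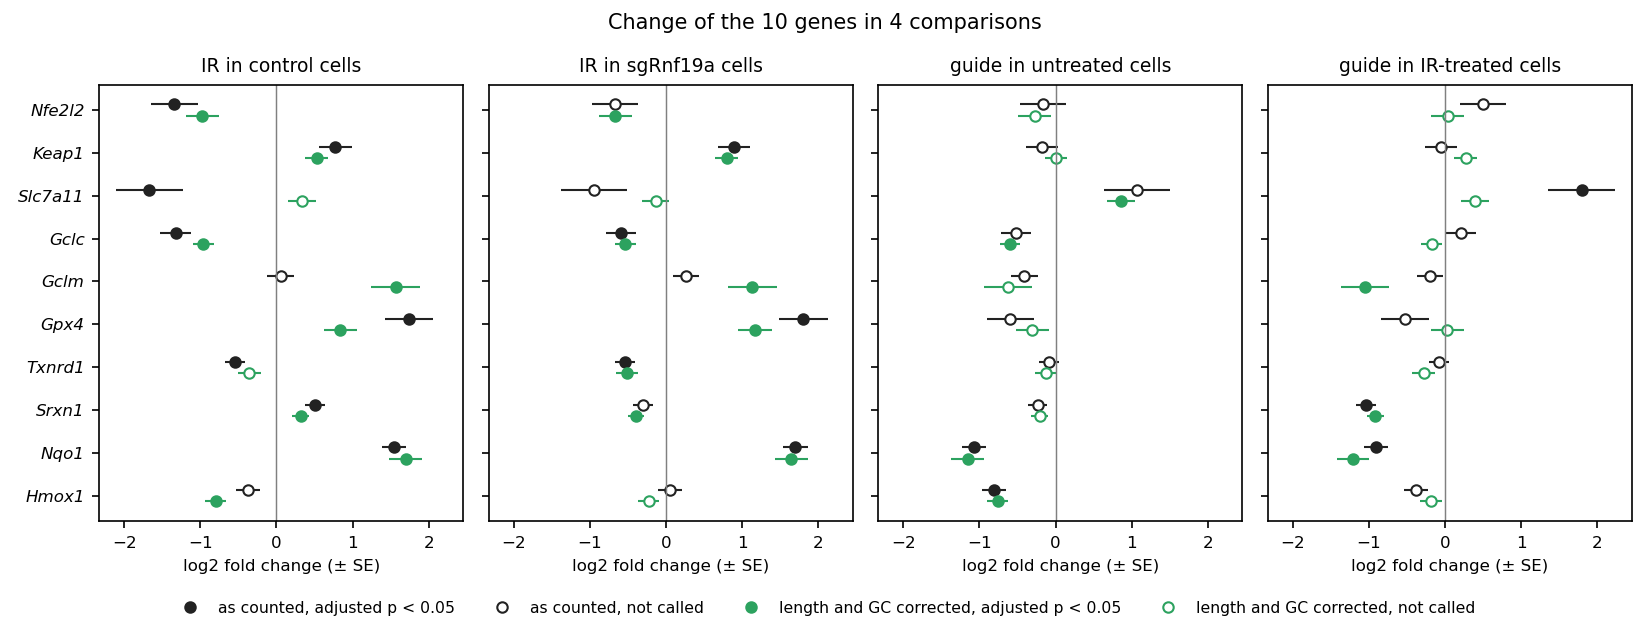
Log2 fold change (x axis) with its SE for each of the 10 genes (y axis) in 4 comparisons, as counted (black) and after the length and GC correction (green); filled points have an edgeR adjusted p under 0.05. Nqo1 keeps its place under both, whereas Slc7a11 moves from -1.67 to 0.33 and Gclm from 0.055 to 1.56 with IR in control cells.

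The wider pathway was followed through 83 further genes in 8 role lists, of which 81 passed the filter on low counts, and these rose with IR more often than they fell. In control cells 41 of the 81 rose and 16 fell (38 and 9 with the correction), with a median log2 change of 0.47 against -0.021 over all genes, where 22.2% were called higher and 25.7% lower. In sgRnf19a cells 31 rose and 13 fell (25 and 13 with the correction), with a median of 0.26 against -0.016 over all genes, where 18.0% were called higher and 17.6% lower. All 11 genes of the thioredoxin and peroxiredoxin list rose in control cells and 9 of them in sgRnf19a cells as counted, and 8 and 6 with the correction. Prdx1, a cytosolic peroxiredoxin, stood at 429, 266 and 597 CPM in control and at 1617, 1414 and 1593 CPM in control_IR libraries and rose 3.58-fold (log2 1.84 ± 0.28; 2.72 with the correction). Txn1, the cytosolic thioredoxin, rose 2.03-fold in control and 2.64-fold in sgRnf19a cells, and Prdx4, the peroxiredoxin of the endoplasmic reticulum, rose 3.07-fold and 3.30-fold. Of 10 glutathione genes 6 rose and 2 fell in each guide (4 and 3 in control cells and 5 and 3 in sgRnf19a cells with the correction), led in control cells by Chac1, which degrades glutathione (log2 1.90 ± 0.21). Of 11 genes of quinone, aldehyde and superoxide detoxification 5 rose and 2 fell in control cells (4 and 2 with the correction), the rising ones including the superoxide dismutase Sod1 (log2 1.35 ± 0.16) and the aldo-keto reductase Akr1b3 (log2 1.43 ± 0.15).

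Of 9 genes of the NRF2 control list, 4 rose and 3 fell with IR in control cells as counted, and 7 rose and 1 fell with the correction. Over all genes, 22.2% were called higher and 25.7% lower with IR in control cells as counted, and 24.3% and 17.3% with the correction. Rbx1, the RING subunit of cullin ligases, rose (log2 1.19 ± 0.12; 2.10 with the correction), and Cul3, the cullin that works with KEAP1, fell (log2 -2.03 ± 0.29), though not with the correction (-0.35, edgeR adjusted p = 0.104). Bach1, a repressor at the same response elements, fell 3.99-fold with IR in control cells and 2.42-fold in sgRnf19a cells (2.03-fold and 1.84-fold with the correction). Mafk, a small MAF partner, rose 2.90-fold in control and 4.95-fold in sgRnf19a cells. In the heme and iron list 5 of 13 rose and 3 fell in control cells (4 and 2 with the correction). Ireb2, an iron regulatory protein, stood at 114 ± 14.2 CPM in control and 11.9 ± 1.65 CPM in control_IR libraries (SD, n = 3), a fall of 9.53-fold as counted and of 2.61-fold with the correction. Tfrc, the transferrin receptor, fell 7.63-fold in control cells (2.48-fold with the correction). In sgRnf19a cells its log2 change was -0.11 ± 0.47, not called, and -1.21 and called without library 4 (edgeR adjusted p = 0.000404). Its interaction was 2.82, not called (edgeR adjusted p = 0.0791), and it was called with the correction (1.74, adjusted p = 0.0271) and without library 4 (1.73, adjusted p = 0.00878). Of 16 genes of ferroptosis lipids and quinone reductases 6 rose and 4 fell in control cells (6 and 1 with the correction). Acsl4, which charges polyunsaturated fatty acids for membrane lipids, fell as counted (log2 -2.12 ± 0.35) but not with the correction (-0.33, edgeR adjusted p = 0.0750).

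**Figure D3:**
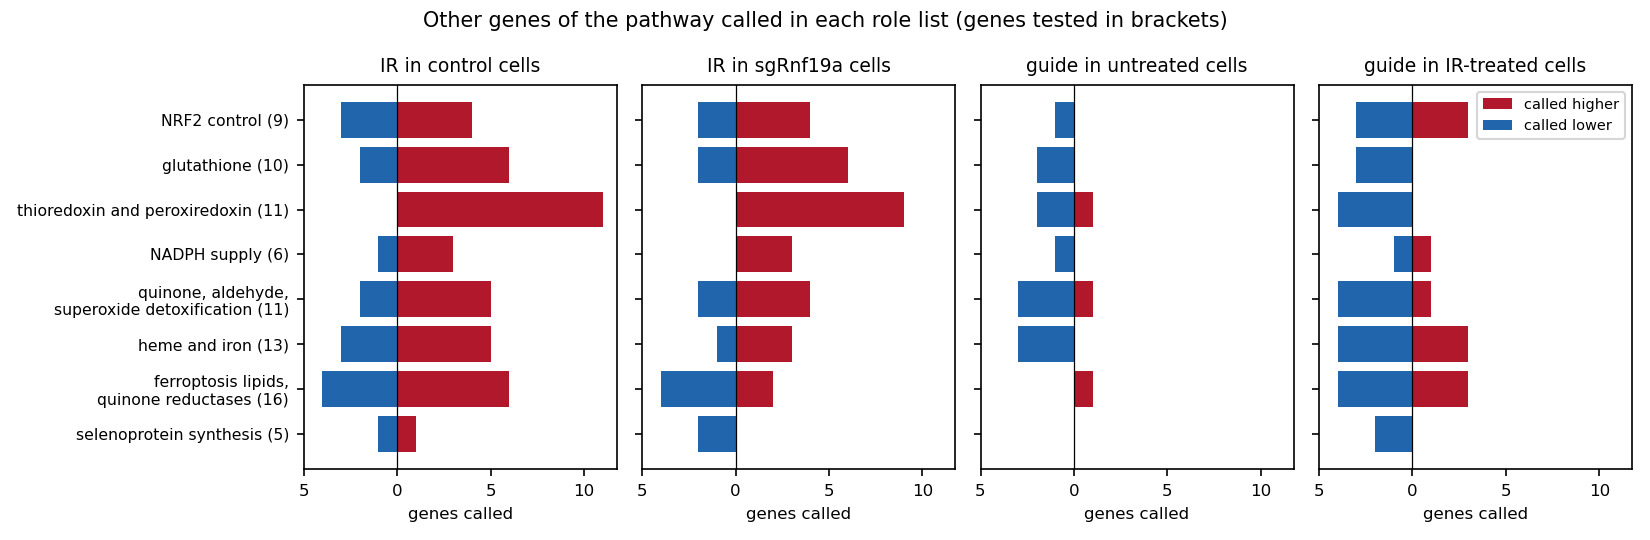
Number of further pathway genes called higher (red, right of 0) or lower (blue, left of 0) by edgeR in each role list (y axis, genes tested in brackets) in the 4 comparisons. All 11 genes of the thioredoxin and peroxiredoxin list were called higher with IR in control cells as counted, and with the guide more genes were called lower than higher, 12 against 3 without IR and 25 against 11 with it.

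With the guide, the further pathway genes fell more often than they rose. Without IR 12 of the 81 fell and 3 rose (12 and 5 with the correction, 25 and 6 without sgRnf19a_IR library 4), against 3.20% of all genes called lower and 3.02% called higher, and the median log2 change was -0.17 against 0.029 over all genes. With IR 25 fell and 11 rose (28 and 9 with the correction), against 12.8% and 21.0% of all genes, with a median of -0.25 against 0.070. Without library 4, 22 fell and 11 rose, with a median of -0.13 against 0.013 over all genes. The shares of all genes called without library 4 are not given for either guide comparison. The guide comparisons share no library, though they share a fit. Of the genes called lower, 11 were called in both: 91.7% of the 12 without IR and 44.0% of the 25 with IR. Over all genes 452 were called lower in both, 77.7% of 582 and 19.4% of 2328. The 11 genes were Akr1b8, Blvrb, Cbr3, Fth1, Gsta4, Gstp1, Me1, Prdx6, Rbx1, Steap3 and Txn2.

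Akr1b8, an aldo-keto reductase, stood at 143, 132 and 139 CPM in control and 50.5, 53.0 and 52.0 CPM in sgRnf19a libraries. With IR it stood at 277, 285 and 271 CPM in control_IR and 75.3, 88.7 and 78.5 CPM in sgRnf19a_IR libraries. As for Nqo1 as counted, the 4 groups did not overlap in CPM. It fell 2.67-fold with the guide without IR (log2 -1.41 ± 0.11, edgeR adjusted p = 1.11e-05) and 3.44-fold with IR (log2 -1.78 ± 0.11, edgeR adjusted p = 1.50e-06). Cbr3, a carbonyl reductase at low counts, stood at 4.26, 3.99 and 6.26 CPM in control and 0.454, 0.857 and 0.992 CPM in sgRnf19a libraries and fell 6.29-fold without IR and 11.5-fold with IR. Steap3, a ferrireductase of the endosome, fell 4.47-fold and 4.41-fold. Among the glutathione transferases, Gstp1 fell 2.29-fold and 3.08-fold, and Gsta4 6.26-fold and 2.96-fold; the copy Gstp2 held a mean of 418 counts per library, so the Gstp1 values are uncertain. Fth1, the heavy chain of the iron store ferritin, fell from 869.8 ± 116 to 483 ± 19.1 CPM without IR (log2 -0.85 ± 0.20) and from 1257 ± 138 to 613 ± 179 CPM with IR (log2 -1.03 ± 0.20; SD, n = 3). Me1, which makes NADPH from malate, fell by 0.78 and 0.59 on the log2 scale.

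Of the further genes called higher with the guide, 2 were called in both comparisons. Mboat1, a lysophospholipid acyltransferase, stood at 1.95, 3.04 and 2.02 CPM in control and 13.3, 13.2 and 12.8 CPM in sgRnf19a libraries, and at 1.74, 1.55 and 1.64 and 4.46, 5.35 and 5.32 CPM in the IR groups. It rose 5.60-fold without IR (log2 2.48 ± 0.21, edgeR adjusted p = 1.82e-05) and 3.07-fold with IR. Ephx1, the microsomal epoxide hydrolase, rose by 1.18 and 1.04 on the log2 scale. Osgin1 fell with the guide in IR-treated cells (log2 -1.88 ± 0.23), and without IR its log2 difference was -0.72 ± 0.22 (edgeR adjusted p = 0.0861), called with the correction (-0.53, adjusted p = 0.0447) and without library 4 (adjusted p = 0.0136); its interaction was -1.16, edgeR adjusted p = 0.0992. With IR the guide also raised Acsl4 (log2 2.11 ± 0.35; 0.86 with the correction and 1.44 without library 4) and Tfrc (log2 2.64 ± 0.50; 1.32 and 1.56), all called. Slc3a2, the heavy chain that pairs with SLC7A11, singled out after its values were seen, was not called as counted in any of the 4 comparisons, at log2 0.47, 0.19, 0.31 and 0.035. Without library 4 it was called with IR in control cells (0.46, edgeR adjusted p = 0.00163) and in sgRnf19a cells (0.43, edgeR adjusted p = 0.00614).

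**Figure D4:**
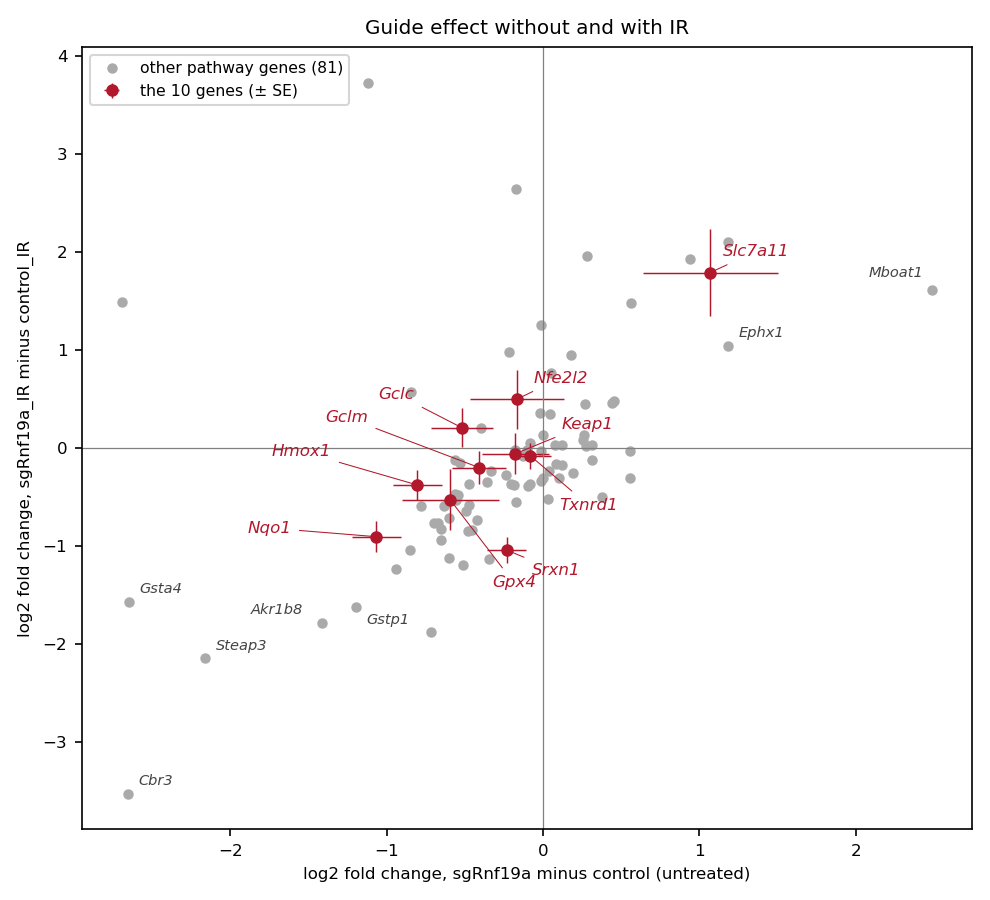
Log2 fold change with the guide in untreated cells (x axis) and in IR-treated cells (y axis) for the 10 genes (red, with SE) and 81 further pathway genes (grey); grey genes called in both with an untreated change past 1 are named. Nqo1 (-1.07 and -0.90) lies with Akr1b8, Gstp1 and Steap3 in the lower left, and Slc7a11 (1.07 and 1.79) lies with Mboat1 and Ephx1 in the upper right. For Slc7a11 the untreated value was not called, and the value with IR was not called after the length and GC correction.

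The pathway genes whose log2 levels followed 3 of the members most closely over the 12 libraries are given as a description. For Nfe2l2 they were Ireb2, Bach1 and Nqo2, at Pearson's r of log2(CPM + 1) of 0.94, 0.93 and 0.92. For Slc7a11 they were Acsl4 (r of 0.98), Ptgs2 (0.95) and Ireb2 (0.92). For Hmox1 they were Steap3, Me1 and Gstp1, at 0.78, 0.77 and 0.75. The 12 libraries fall into 4 groups and share the split in transcript length between untreated and IR libraries, so these values rest on group differences.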

How the data were processed

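RNA of B16F10-labelled cells was sequenced from rRNA-depleted, directional libraries as 37-base paired-end reads after 12 PCR cycles, per the labels' protocols. Per the submitters' processing notes, which give neither roles nor versions, the tools were Bowtie2, HTSeq and DESeq2, and the builds named were GRCm39 and mm10. Of the 29456 gene IDs of the FPKM table found in GENCODE M21 (mm10), 26714 have the same start and end. Among the members, the deposited position of Srxn1 differs from that annotation, which supplied the transcript lengths and GC content. The deposited counts per gene are whole numbers, treated as estimated counts because low values pile up at multiples of 4 in genes with transcripts over 2 kb (4 occurs 5958 times, 3 occurs 989 times and 5 occurs 1000 times), so no rounding was needed. The authors deposited FPKM values of the same libraries. A second set of 12 count columns that repeat others was not used. The IR columns were placed in their groups by elimination.

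The tests used edgeR 4.0.16 (R 4.3.3): filterByExpr with a minimum count of 10 and a minimum total of 15, TMM factors, a robust quasi-likelihood fit of 4 group means to all 12 libraries and Benjamini-Hochberg adjustment over 18183 genes. SE is the log2 change divided by the square root of F, and intervals are 95% with t on 8 degrees of freedom. The length and GC correction removed, per library, a natural spline (5 degrees of freedom) of log2 transcript length and GC content of the longest GENCODE M21 transcript. Alternatives were DESeq2 1.42.0, edgeR with DESeq2 size factors or with upper-quartile factors, an unfiltered fit, only the compared groups, counts divided by 4, limma 3.58.1 on log2(FPKM + 1) or log2(FPKM + 0.1) at a mean of at least 0.5 FPKM or unfiltered, each library left out, and replicate blocks. The fits were checked on simulated counts that held no trend with transcript length and no outlying library. That check therefore does not cover these features, and its outcome is not given here.

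The members, lists, alternatives and motifs were chosen with earlier results of these data known. The antioxidant response element was first searched as TGACNNNGC alone, and TGAGNNNGC was added after the matches were seen. TGACNNNGC alone occurred in 12.4% of promoter windows and, counted by gene, in 4 members (Gclm, Nfe2l2, Srxn1 and Txnrd1). All 10 members were reported in each comparison. Further genes were named if called, with a mean of at least 2 CPM, up to 3 per list and comparison by smallest p, and the genes called in both guide comparisons were also named after their values were seen.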

Additional observations from a re-analysis of the deposited data

Results flagged for a closer look

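Srxn1 was the member in which the libraries moved one way with IR under the control guide and the other way under the Rnf19a guide in CPM. All 3 control_IR libraries lay above the control libraries and all 3 sgRnf19a_IR libraries lay below the sgRnf19a libraries. In FPKM the control_IR libraries (29.5 to 35.7) overlapped with the control libraries (30.3 to 34.8), and the sgRnf19a_IR libraries (13.9 to 19.7) lay below the sgRnf19a libraries (25.8 to 28.6). The difference between the responses was -0.81 on the log2 scale, with an edgeR adjusted p of 0.0672 for the interaction, and it was called in 6 of 22 alternatives. No test of single outlying libraries was made.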

How the results depend on the processing

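Of 1160 values of single members recomputed under the alternatives, 1010 kept their direction and their side of the threshold, 25 lost the call, 62 gained one and 63 changed sign. In 60 of the 63 sign changes neither value was called. Nqo1 was called in every alternative fit run for the 4 comparisons of groups. The lowest count behind any member was 263, for Slc7a11 in control_IR library 1. The cause of the changes listed here was not tested.

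With IR in sgRnf19a cells the members called numbered 5, against 8 with the length and GC correction, 8 in DESeq2 and 3 with only the compared groups in the fit. With the guide in untreated cells they numbered 2, against 4 with the correction, 4 with only the compared groups in the fit and 1 to 4 when libraries were left out in turn. The lowest came without sgRnf19a library 2 or 3 and the highest without sgRnf19a_IR library 4. With the guide in IR-treated cells they numbered 3, and 3 to 5 with libraries left out, 5 without sgRnf19a_IR library 3. For the difference between IR responses they numbered 0, against 1 with the correction, 1 in DESeq2, 1 with counts divided by 4 and 0 to 1 with libraries left out. A correction with sgRnf19a_IR library 4 left out, chosen after seeing the data, gave 9, 5, 4 and 1 in these 4 comparisons. The share of all genes called is given only for the fit as counted and for the correction on all libraries. The other counts here are therefore not read as results about the members.

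With the correction the sign changed for Slc7a11 (0.33) for IR in control cells, Hmox1 (-0.23) for IR in sgRnf19a cells, Keap1 (0.0044) for the guide in untreated cells, Keap1 (0.27), Gclc (-0.17) and Gpx4 (0.030) for the guide in IR-treated cells and Slc7a11 (-0.47), Gclm (-0.43), Txnrd1 (-0.16) and Nqo1 (-0.053) for the difference between IR responses. With library 4 left out as well it changed for Slc7a11 (0.29) for IR in control cells, Hmox1 (-0.25) for IR in sgRnf19a cells, Keap1 (0.0039) for the guide in untreated cells, Nfe2l2 (-0.36), Keap1 (0.39), Gclc (-0.28) and Gpx4 (0.20) for the guide in IR-treated cells and Nfe2l2 (-0.090), Slc7a11 (-0.73), Gclm (-0.084) and Txnrd1 (-0.016) for the difference between IR responses. Without the filter on low counts it changed for Gclm (-0.017) for IR in control cells and Hmox1 (-0.012) for IR in sgRnf19a cells, with upper-quartile factors for Gpx4 (-0.026) and Txnrd1 (-0.094) for the difference between IR responses and with counts divided by 4 for Txnrd1 (-0.017) for the difference between IR responses. On log2(FPKM + 1), with or without the filter on low values, limma gave the other sign for Gclm (-0.38) for IR in control cells, Gclm (-0.18) and Hmox1 (-0.37) for IR in sgRnf19a cells and Slc7a11 (-0.010) and Gpx4 (-0.064) for the difference between IR responses. With a pseudocount of 0.1 it did so for Gclm (-0.41) for IR in control cells, Gclm (-0.20) and Hmox1 (-0.39) for IR in sgRnf19a cells and Gpx4 (-0.061) for the difference between IR responses. The median of all genes moved by more than 0.1 as follows. With IR in control cells it went from -0.021 to 0.094 with the correction, 0.098 with the correction and library 4 left out, 0.19 with upper-quartile factors, -0.13 without sgRnf19a_IR library 1, -0.34 on log2(FPKM + 1) and -0.45 on log2(FPKM + 0.1). With IR in sgRnf19a cells it went from -0.016 to 0.093 with upper-quartile factors and to -0.40 and -0.53 on the FPKM scales. With the guide in IR-treated cells it went from 0.070 to -0.059 with the correction, -0.036 with library 4 left out as well and -0.055 with upper-quartile factors, and for the difference between IR responses from 0.090 to -0.068 and -0.045 with these corrections.

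With libraries left out in turn some members changed sign within their range. For IR in control cells, Gclm ran from -0.0608 to 0.26. For IR in sgRnf19a cells, Hmox1 ran from -0.0601 to 0.26. For the guide in IR-treated cells, Nfe2l2 ran from -0.11 to 0.75, Keap1 ran from -0.26 to 0.18, Gclc ran from -0.0343 to 0.34 and Txnrd1 ran from -0.17 to 0.0414. For the difference between IR responses, Keap1 ran from -0.0786 to 0.36, Slc7a11 ran from -0.24 to 1.10, Gpx4 ran from -0.31 to 0.35 and Txnrd1 ran from -0.0743 to 0.12.

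The replicate numbers of the labels were tried as a block in the untreated guide comparison, since no IR column carries the labels' numbers. Same-numbered deviations from the group means correlated at -0.157, -0.0096 and 0.033, and no library correlated best with its own number, so the numbers were not taken to pair the libraries. With the replicate block 6 members were called and with the block and the correction 5, with Keap1 at 0.013 under the latter. The share of all genes called with the block is not given. No paired analysis was possible for the other comparisons because of the missing numbers.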
